A study of Mus musculus with 2 samples.

Results

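Endothelial adhesion genes let blood cells attach to the vessel wall and hold endothelial cells together, and 9 of the 19070 genes measured are described here, namely Vcam1, Icam1, Icam2, Selp, Sele, Pecam1, Cdh5, Esam and Plvap. They were listed by symbol, with no threshold on their levels but with earlier results of these data known, and were read in 2 coronal brain sections assayed with Visium HD, which counts probe-captured transcripts as unique molecular identifiers (UMIs) on a grid of square bins of 16 µm. One section came from a male C57Bl6 mouse 3 days after controlled cortical impact (CCI), a contusion made by a piston above the right parietal lobe, and the other from a male C57Bl6 mouse 28 days after CCI. Both mice were labelled 3 months old and, apart from the surgery, untreated, and were perfusion-fixed before paraffin embedding. The impact was made under ketamine and medetomidine, with buprenorphine and local bupivacaine against pain, agents given to both mice. A section of a sham-operated or uninjured brain was not analysed here, so the side of the section away from the impact served as the reference.

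The side of the lesion was taken as array columns below 130 at 3 days and below 240 at 28 days. This is a straight line on the array that may not follow the midline of the brain, so part of one hemisphere can lie on the other side of it. After bins under 100 UMIs were left out, the injured side held 39116 bins at 3 days and 49478 at 28 days, and the opposite side 80501 and 53838. At 3 days the median depth per kept bin was 804 UMIs on the injured side against 871 on the other, and at 28 days 564 against 657. The sections share 84781 array positions, which are places on the grid and not cells. With 1 section at each time, no test was made between times or sides. Intervals in brackets or after a value are exact 95% counting intervals, which leave out the spread between animals and sections. UMIs of a gene are given per 1000000 UMIs of the same area, written CPM. Since each gene has its own probes, levels are compared between places and never between genes. A bin can hold parts of several cells, and fewer cells of a type and less RNA per cell cannot be told apart.

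The genes cover successive steps by which blood leukocytes leave a vessel, and the junctions they pass. P-selectin and E-selectin, encoded by Selp and Sele, slow leukocytes on the vessel wall, after which ICAM-1, ICAM-2 and VCAM-1 bind leukocyte integrins and hold them. PECAM-1, VE-cadherin (Cdh5) and ESAM sit at the contacts between endothelial cells, while Plvap forms the diaphragms of fenestrated capillaries, which the blood-brain barrier endothelium lacks.

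Selp, Sele, Vcam1 and Icam1 are textbook targets of cytokine-driven NF-kB, and the start regions that could be looked up are shown for that reason. On mouse build GRCm38.p6, Vcam1 lies at chr3:116110020-116129688, Icam1 at chr9:21015940-21028814, Icam2 at chr11:106377656-106388139, Selp at chr1:164115264-164150026, Sele at chr1:164039614-164058487, Pecam1 at chr11:106654213-106715281, Cdh5 at chr8:104101613-104144504, Esam at chr9:37528089-37538319 and Plvap at chr8:71497753-71511806. The RefSeq promoter table of that build matched 3 of the 9, namely Icam1, Selp and Sele. The 250 bases before the start site of Icam1 (chr9:21015690-21015939, plus strand) and Selp (chr1:164115014-164115263, plus strand) are given, with each match to the NF-kB-type motif GGNNNTTCC, or to GGAANNNCC when it lies on the other strand, in capitals.
Icam1: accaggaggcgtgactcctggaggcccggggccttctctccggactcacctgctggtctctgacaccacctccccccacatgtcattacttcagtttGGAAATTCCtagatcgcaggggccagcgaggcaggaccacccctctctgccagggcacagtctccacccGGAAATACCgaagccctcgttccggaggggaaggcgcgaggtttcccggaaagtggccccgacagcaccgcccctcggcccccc
Selp: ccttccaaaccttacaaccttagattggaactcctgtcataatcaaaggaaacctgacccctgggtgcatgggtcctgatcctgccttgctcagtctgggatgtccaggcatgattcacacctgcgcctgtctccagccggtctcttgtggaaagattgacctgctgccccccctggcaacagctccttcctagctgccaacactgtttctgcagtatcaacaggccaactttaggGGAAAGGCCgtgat
Icam1 held the motif at 2 places, 153 and 84 bases before the start site, the former reading as a match on both strands. Selp held it 14 bases before the start site, and the Sele window held GGATATTCC 145 bases before the site the table gives, which lies inside the span of the gene given above and may be an inner start. Of all 32851 promoter windows of this length, 15.7% held the motif on either strand, so a match is a description of the letters and not of a binding site.

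The opening comparison asked which of these genes had more signal on the side of the impact. At 3 days 5 of the 9 genes were at least 2-fold higher on the injured side and none was 2-fold lower. Of the 16164 genes with at least 20 UMIs, 10.5% were 2-fold higher and 2.12% 2-fold lower. At 28 days 8 of the 9 had enough UMIs. One of the 8, Icam1, was 2-fold higher where 6.43% of 15640 genes were, and 1 of the 8, Selp, was 2-fold lower where 0.582% were, on 22 UMIs in all. The median log2 ratio of injured over opposite side over the measured members was 1.09 at 3 days and 0.09 at 28 days, beside 0.14 and 0.04 over all genes tested. Vcam1, Icam2, Icam1, Selp and Sele made up the 5 at 3 days, and Icam1 was the only member 2-fold higher at both times. At 3 days the count depended on the reference and the scaling: 2 of the 9 (Icam1 and Selp) were 2-fold higher against opposite columns of the same width, and 3 (Icam1, Selp and Sele) under TMM scaling, which moved the median of all genes from 0.14 to -0.01. Of all genes, 6.73% and 7.73% were 2-fold higher in those settings. With UMIs per bin in place of CPM, the members counted were Vcam1, Icam1, Selp and Sele, and the share of all genes was not computed.

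Icam1, the integrin ligand that holds leukocytes firmly, stood at 11.3 CPM (10.3 to 12.5) on the injured side and 4.50 CPM (4.05 to 4.98) on the opposite side at 3 days, and at 12.9 CPM (11.7 to 14.1) and 3.79 CPM (3.24 to 4.4) at 28 days. The log2 ratio stood at 1.33 (1.13 to 1.54), then 1.76 (1.51 to 2.03). Both injured sides lay above both opposite sides, and the intervals of the 2 injured sides overlapped.

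Vcam1, the ligand of the integrin formed by Itga4 and Itgb1, had 45.2 CPM (43.1 to 47.4) on the injured and 20.9 CPM (19.9 to 21.9) on the opposite side at 3 days. At 28 days it had 41.8 CPM (39.7 to 43.9) and 23.2 CPM (21.8 to 24.7). The log2 ratio was 1.11 (1.01 to 1.21) and 0.85 (0.73 to 0.96). As for Icam1, no interval of an injured side overlapped that of an opposite side.

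The selectins were sparse. Selp had 69 UMIs on the injured and 24 on the opposite side at 3 days, or 1.84 CPM (1.43 to 2.33) and 0.289 CPM (0.185 to 0.431), the log2 ratio being 2.65 (1.98 to 3.40). In the 28 days section it had 6 and 16 UMIs, with a log2 ratio of -1.06 whose interval, -2.77 to 0.30, spans 0. Selp thus had the largest ratio of the 9 genes at 3 days, on a small part of their UMIs. Sele had 12 and 9 UMIs at 3 days, with 1.54 (0.19 to 2.98) as log2 ratio, and 6 and 4 at 28 days, too few for a ratio to be counted.

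Icam2, an integrin ligand that resting endothelium carries, had 8.28 CPM (7.38 to 9.25) on the injured and 3.90 CPM (3.48 to 4.34) on the opposite side at 3 days. At 28 days the values were 4.23 CPM (3.59 to 4.95) and 4.72 CPM (4.10 to 5.39). The log2 ratio was 1.09 (0.86 to 1.32) and -0.16 (-0.46 to 0.15), so that the sides separated at 3 days and overlapped at 28 days.

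The junction genes differed more between sides at 3 days than at 28 days. Pecam1, a contact protein of endothelial cells and platelets, had 40.0 CPM on the injured side against 20.8 CPM at 3 days, and 24.8 against 21.9 CPM at 28 days, log2 ratios of 0.95 (0.85 to 1.05) and 0.17 (0.04 to 0.31). Cdh5, the cadherin of endothelial adherens junctions, had 15.4 and 7.95 CPM at 3 days and 9.48 and 7.75 CPM at 28 days, log2 ratios of 0.95 (0.79 to 1.11) and 0.29 (0.07 to 0.51). For Esam, a tight junction adhesion molecule, 39.3 and 26.3 CPM at 3 days gave 0.58 (0.48 to 0.67), and 29.7 and 31.0 CPM at 28 days gave -0.06 (-0.18 to 0.05). Plvap had the smallest ratio at 3 days, 0.37 (0.22 to 0.52), from 15.3 and 11.9 CPM, and at 28 days had 11.2 CPM on each side, a ratio of 0.00 (-0.19 to 0.19). At 28 days the intervals of Esam and Plvap spanned 0. The Cdh5 ratio at 28 days turned to -0.0423 when bins with a choroid plexus or fibroblast UMI were left out. These differences between the times were not tested, since each time is 1 section of 1 mouse.

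**Figure D1:**
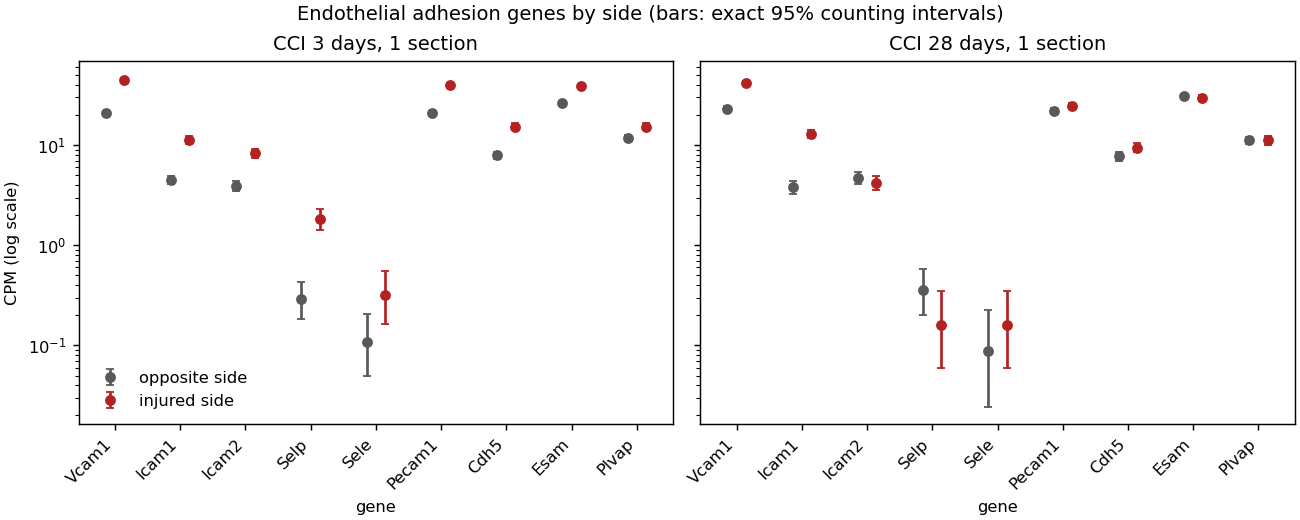
Level of each of the 9 genes in CPM (log axis) on the injured and the opposite side of the 3 days and the 28 days section, with exact 95% counting intervals as bars. At 3 days Vcam1 (45.2 against 20.9 CPM) and Pecam1 (40.0 against 20.8 CPM) separate by side, and at 28 days Icam1 (12.9 against 3.79 CPM) and Vcam1 (41.8 against 23.2 CPM) separate most clearly.

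Endothelial content differed between the sides as well. The summed level of 9 endothelial markers that share no gene with the members (Cldn5, Flt1, Slco1a4, Itm2a, Abcb1a, Tie1, Tek, Egfl7 and Emcn) was at 3 days 504 CPM on the injured side against 373 CPM on the other, and at 28 days 391 against 376 CPM, log2 ratios of 0.44 and 0.06. None of the 9 markers was 2-fold higher at either time, beside 10.5% and 6.43% of all genes. Members were therefore also expressed per 1000 UMIs of these markers.

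On that scale Vcam1 at 3 days had 89.6 on the injured side against 56.0 on the other, and 107 against 61.8 at 28 days, log2 ratios of 0.68 (0.58 to 0.77) and 0.79 (0.67 to 0.90). Icam1 had 22.5 and 12.1 at 3 days, and 32.9 and 10.1 at 28 days, log2 ratios of 0.90 (0.69 to 1.10) and 1.70 (1.45 to 1.97). Both genes stayed higher on the injured side per endothelial UMI at both times. Selp at 3 days had 3.64 and 0.776, a log2 ratio of 2.21 (1.54 to 2.97), and Icam2 16.4 and 10.4, a ratio of 0.65 (0.42 to 0.88).

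Per endothelial UMI Pecam1 and Cdh5 had log2 ratios of 0.51 (0.41 to 0.61) and 0.52 (0.35 to 0.68) at 3 days. At 28 days they had 0.12 (-0.02 to 0.25) and 0.23 (0.01 to 0.45), the latter -0.0276 without bins holding a choroid plexus or fibroblast UMI. The values of Esam were 0.14 (0.05 to 0.24) at 3 days, which turned to -0.0427 with Cldn5 alone as the reference, then -0.12 (-0.24 to -0.01), whereas for Plvap both intervals spanned 0, at -0.07 (-0.22 to 0.08) and -0.06 (-0.25 to 0.13). This scale takes the same amount off every ratio of a section, so it leaves their order unchanged. It brought Esam and Plvap close to 0 at 3 days. Selp, Icam1 and Vcam1 were then highest of the members with at least 20 UMIs on the injured side, and the Vcam1 interval overlapped that of Icam2. Sele, with 12 UMIs on that side, had 1.10 (-0.25 to 2.55).

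To place the genes relative to the lesion, a zone was drawn on the injured side from 6 phagocyte genes (Cd68, Lyz2, Ctsz, Lgals3, Cd52 and Laptm5), none of which is a member. Tiles of 64 µm whose smoothed level passed the 99th percentile of the opposite side, in patches of at least 25 tiles, made up 22.1% of the injured side at 3 days and 27.7% at 28 days. The zone held 8522 bins at 3 days and 13559 at 28 days. Distances were measured from its edge, with bands split at 250, 500 and 1000 µm. Bins over 250 µm inside the edge held fewer UMIs of all genes than bins of the opposite side at both times. A fold in CPM there is therefore larger than the fold in UMIs per bin.

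In CPM Icam1 was highest deep in the zone at both times. At 3 days it had 30.7 CPM (22.7 to 40.6) over 250 µm inside the edge, 21.5 CPM up to 250 µm inside, 23.9 CPM (19.7 to 28.6) up to 250 µm outside, 12.3 CPM at 250 to 500 µm, 5.94 CPM at 500 to 1000 µm and 5.12 CPM (4.07 to 6.36) beyond. At 28 days the same bands had 63.5 CPM (55.2 to 72.7), 31.4 CPM (26.1 to 37.6), 8.22 CPM (6.04 to 10.9), 5.13, 3.42 and 3.91 CPM. In CPM the deep zone stood 6.89-fold over the opposite side at 3 days and 16.8-fold at 28 days. The 28 days levels dropped within the first 250 µm outside the edge, and at 3 days the band outside the edge overlapped the inside of the zone. From deep in the zone outwards the 3 innermost bands at 3 days held 49 UMIs in 3186 bins, 77 in 5336 and 116 in 5134. In UMIs per bin the band just outside the edge was thus the highest of the 3.

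Vcam1 had 75.3 CPM (62.4 to 90.0) deep in the zone at 3 days, 88.6 CPM (79.1 to 98.9) near its inner edge, 89.9 CPM (81.7 to 98.8) up to 250 µm outside, 51.1 CPM at 250 to 500 µm, 23.9 CPM at 500 to 1000 µm and 25.2 CPM beyond. At 28 days it had 90.8 CPM (80.8 to 102), 72.0 CPM (63.8 to 81.0), 47.9 CPM (42.4 to 53.9), 32.7, 29.6 and 25 CPM in the same order. In CPM the 3 innermost bands overlapped at 3 days, and at 28 days the outer one of them was lower. At 3 days they held 120 UMIs in 3186 bins, 317 in 5336 and 437 in 5134, so that UMIs per bin rose outwards over them. Over the whole zone Vcam1 was at 84.5 CPM at 3 days and 80.8 CPM at 28 days.

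The ring just outside the zone also held choroid plexus, the tissue that secretes cerebrospinal fluid. The summed level of 9 choroid plexus markers, such as Folr1, Kl and Clic6, was 1789 CPM up to 250 µm outside the zone at 3 days and 847 CPM at 28 days, against 79.0 and 137 CPM on the opposite side. All 9 of these markers were 2-fold higher on the injured side at 3 days and 1 of 9 at 28 days, and none was at 0. Of all genes 10.5% and 6.43% were 2-fold higher. The list of fibroblast genes was at 447 and 106 CPM in that ring, against 101 and 77.8 CPM on the opposite side. Leaving out the bins that held a choroid plexus or fibroblast UMI, a choice made after seeing the data, removed 13.5% of the injured and 7.76% of the opposite side at 3 days, and 9.08% and 7.11% at 28 days. Outside the 3 days zone the fibroblast list was 4.52-fold higher in bins with Pecam1, so this step also took out vessel bins. The part of each list in the changes that follow was not tested. In the remaining bins Vcam1 up to 250 µm outside the zone was at 44.8 CPM (37.8 to 52.8) at 3 days and 20.8 CPM (17.0 to 25.3) at 28 days, against 17.0 and 18.5 CPM on the opposite side. The 3 innermost bands at 3 days then held 101 Vcam1 UMIs in 2805 bins, 252 in 4601 and 144 in 3879, with no steady rise outwards per bin. At 250 to 500 µm Vcam1 was at 24.9 CPM (20.4 to 30.1) at 3 days, in place of 51.1 CPM, and 23.3 CPM at 28 days. Within the zone it was at 82.4 CPM (74.0 to 91.4) and 71.8 CPM (65.3 to 78.8). The higher Vcam1 level inside the zone was therefore nearly as large without those bins, and at 28 days the level just outside it overlapped that of the opposite side.

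Over the whole side the log2 ratio without those bins was 0.92 at 3 days and 0.79 at 28 days for Vcam1, and 1.10 and 1.88 for Icam1. Icam1 up to 250 µm outside the zone was then at 14.6 CPM (10.7 to 19.5) and 5.98 CPM (4.01 to 8.59), at 250 to 500 µm at 5.59 CPM (3.58 to 8.32) and 3.44 CPM, and in the zone at 21.0 and 40.2 CPM. Its 3 innermost bands at 3 days then held 35 UMIs in 2805 bins, 55 in 4601 and 47 in 3879. Icam1 and Selp were the members counted as 2-fold higher at 3 days in those bins, where 8.28% of all genes were. Sele fell under the minimum of 20 UMIs there and was not counted. It had 7 UMIs in the zone, 1 on the injured side outside it and 6 on the opposite side.

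Of the junction genes Pecam1 at 3 days had 165 CPM (146 to 186) deep in the zone, 80.5 CPM (71.5 to 90.3) near its inner edge, 49.8 CPM (43.7 to 56.5) up to 250 µm outside, 31.1 CPM at 250 to 500 µm, 22.3 CPM at 500 to 1000 µm and 25.4 CPM beyond. At 28 days it had 39.2 CPM (32.8 to 46.6), 30.6, 21.9, 29.4, 20.9 and 18.8 CPM. Deep in the zone its CPM was 7.96-fold over the opposite side at 3 days and 1.79-fold at 28 days. The counts behind these folds were 263 UMIs in 3186 bins against 1721 in 80501 at 3 days. At 28 days they were 131 UMIs in 6413 bins against 991 in 53838, so the folds in UMIs per bin were smaller. Pecam1 per 1000 endothelial UMIs was 215 deep in the 3 days zone against 55.7 on the opposite side, so that its gradient exceeded that of the endothelial markers.

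From deep in the zone outwards Cdh5 at 3 days had 52.1 CPM (41.5 to 64.5), 27.7, 18.5, 14.5, 9.0 and 10.7 CPM. Esam had 88.4 CPM (74.4 to 104), 65.1, 53.5, 33.4, 33.4 and 28.5 CPM. Without the choroid plexus and fibroblast bins the 2 bands from the edge to 500 µm had 10.9 CPM (7.59 to 15.2) and 8.86 CPM (6.27 to 12.2) of Cdh5, which overlap. Pecam1 was then at 37.0 CPM (30.7 to 44.3) and 20.04 CPM (16.03 to 24.8) in them, the latter overlapping the 18.7 CPM (17.8 to 19.7) of the opposite side. Over all bins Icam2 at 3 days had its highest CPM in both zone bands, 16.3 CPM (10.7 to 23.9) and 18.7 CPM (14.5 to 23.8), and 8.64 CPM (6.23 to 11.7) just outside. It had 6.41 and 4.18 CPM in the next 2 bands and 7.25 CPM (5.99 to 8.69) beyond 1000 µm, on 116 UMIs. The last value was 1.87-fold over the opposite side, so the higher Icam2 level was not confined to the zone and its rim. Plvap lay between 9.96 CPM (7.64 to 12.8) at 500 to 1000 µm and 25.2 CPM (20.2 to 30.9) near the inner edge. At 28 days Plvap had 6.89 CPM (4.37 to 10.3) deep in the zone, and 11.2 CPM (10.2 to 12.2) on the opposite side, a log2 ratio of -0.67 (-1.37 to -0.09) and, per endothelial UMI, of -1.30 (-2.0 to -0.73). Cdh5 had 17.4 CPM (13.2 to 22.5) there against 7.75 CPM on the opposite side. Without the choroid plexus and fibroblast bins Cdh5 was at 9.3 CPM (6.02 to 13.7) in that place, and Icam2 deep in the 3 days zone at 10.5 CPM (5.74 to 17.6). Icam2 beyond 1000 µm outside that zone was then at 5.37 CPM (4.23 to 6.72), against 3.23 CPM (2.84 to 3.66) on the opposite side.

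Most Selp UMIs of the injured side at 3 days lay in the zone and its rim. The gene had 27 UMIs in 3186 bins deep in the zone, 20 UMIs in 5336 bins near its inner edge and 17 UMIs in 5134 bins up to 250 µm outside, or 16.9 CPM (11.2 to 24.6), 5.59 CPM (3.41 to 8.63) and 3.50 CPM (2.04 to 5.6). The 3 bands farther out had 1, 1 and 3 UMIs. Without the choroid plexus and fibroblast bins the innermost 3 bands had 24, 5 and 16 UMIs, or 18.0 CPM (11.5 to 26.8), 1.69 CPM (0.550 to 3.95) and 4.98 CPM (2.85 to 8.09), so that the level near the inner edge was no longer above that just outside. In the 28 days zone Selp had 2 UMIs in 13559 bins, 0.279 CPM (0.034 to 1.01), a level that overlaps that of the opposite side at that time, 0.354 CPM (0.202 to 0.575). Of the 12 Sele UMIs on the injured side at 3 days, 8 lay deep in the zone.

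Marker genes of blood leukocytes, of which 7 were measured, among them Ccr2, Plac8 and S100a8, were concentrated in the same bands. Their summed level was 209 CPM deep in the zone, 52.0 CPM near its inner edge and 16.9 CPM just outside at 3 days, against 3.33 CPM on the opposite side. At 28 days it was 122, 89.8 and 3.50 CPM, against 5.47 CPM. The zone was itself drawn from phagocyte genes, some of which blood leukocytes carry, so this placement is not independent of how the bands were made. Leukocytes and platelets themselves carry Pecam1 and Selp, and the part of these cells in the levels of either gene was not tested.

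**Figure D2:**
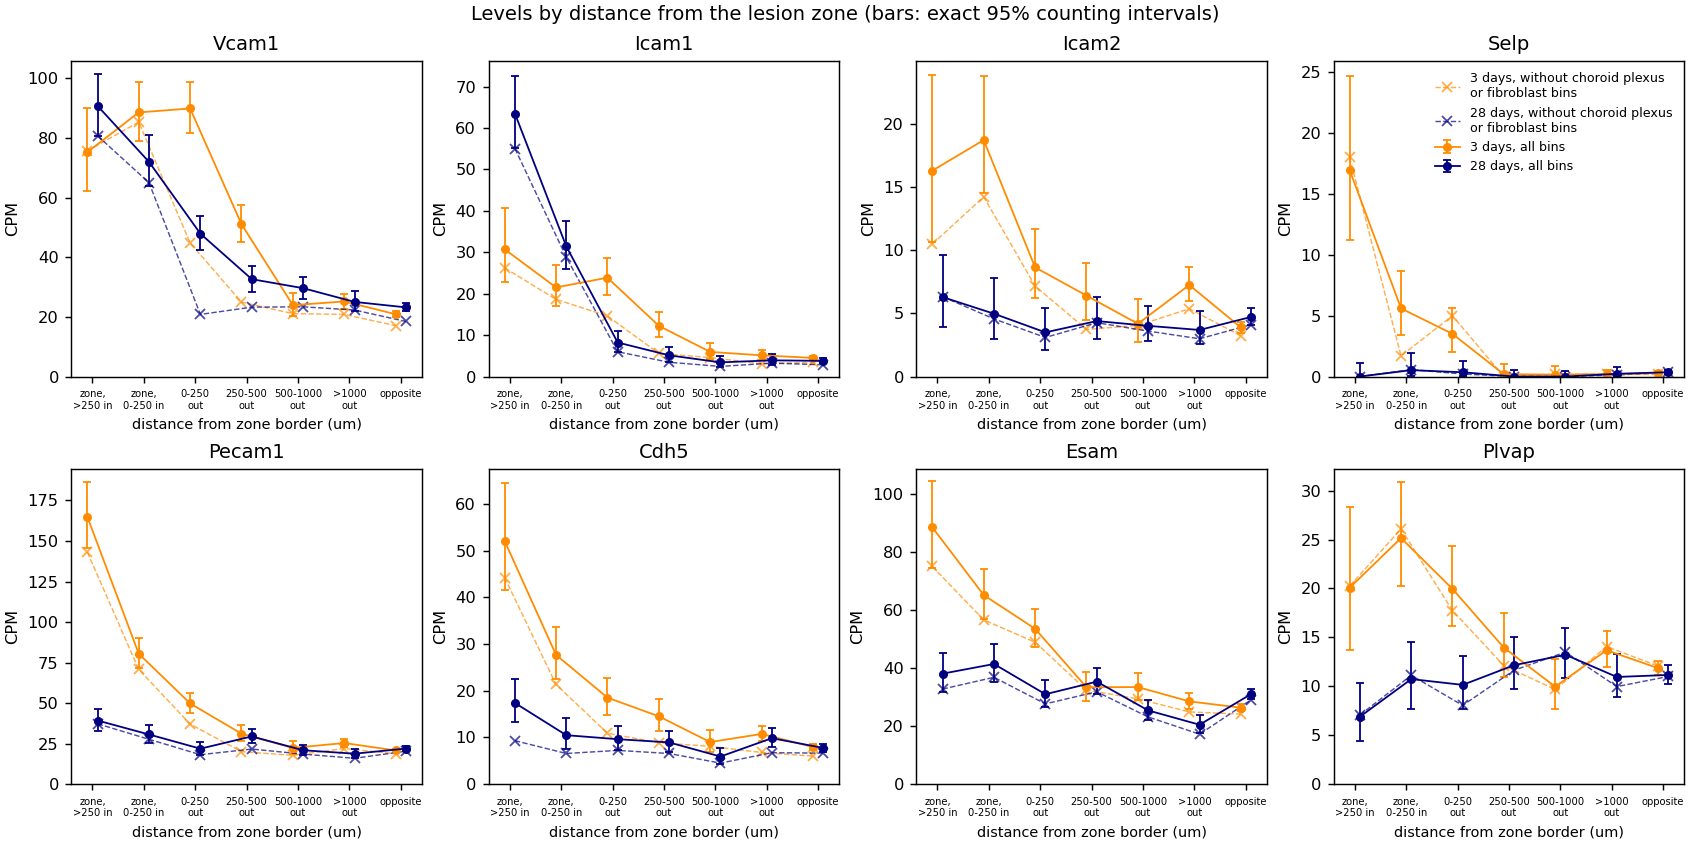
CPM of 8 members by distance from the edge of the phagocyte-rich zone, from deep inside it to beyond 1000 µm outside and then the opposite side, at 3 days and 28 days, with exact 95% counting intervals; dashed lines leave out bins with a choroid plexus or fibroblast UMI. Pecam1 reaches 165 CPM deep in the 3 days zone and 39.2 CPM in the 28 days zone, whereas Icam1 reaches 30.7 and 63.5 CPM, and the dashed Vcam1 line lies lower just outside the zone (44.8 against 89.9 CPM at 3 days).

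**Figure D3:**
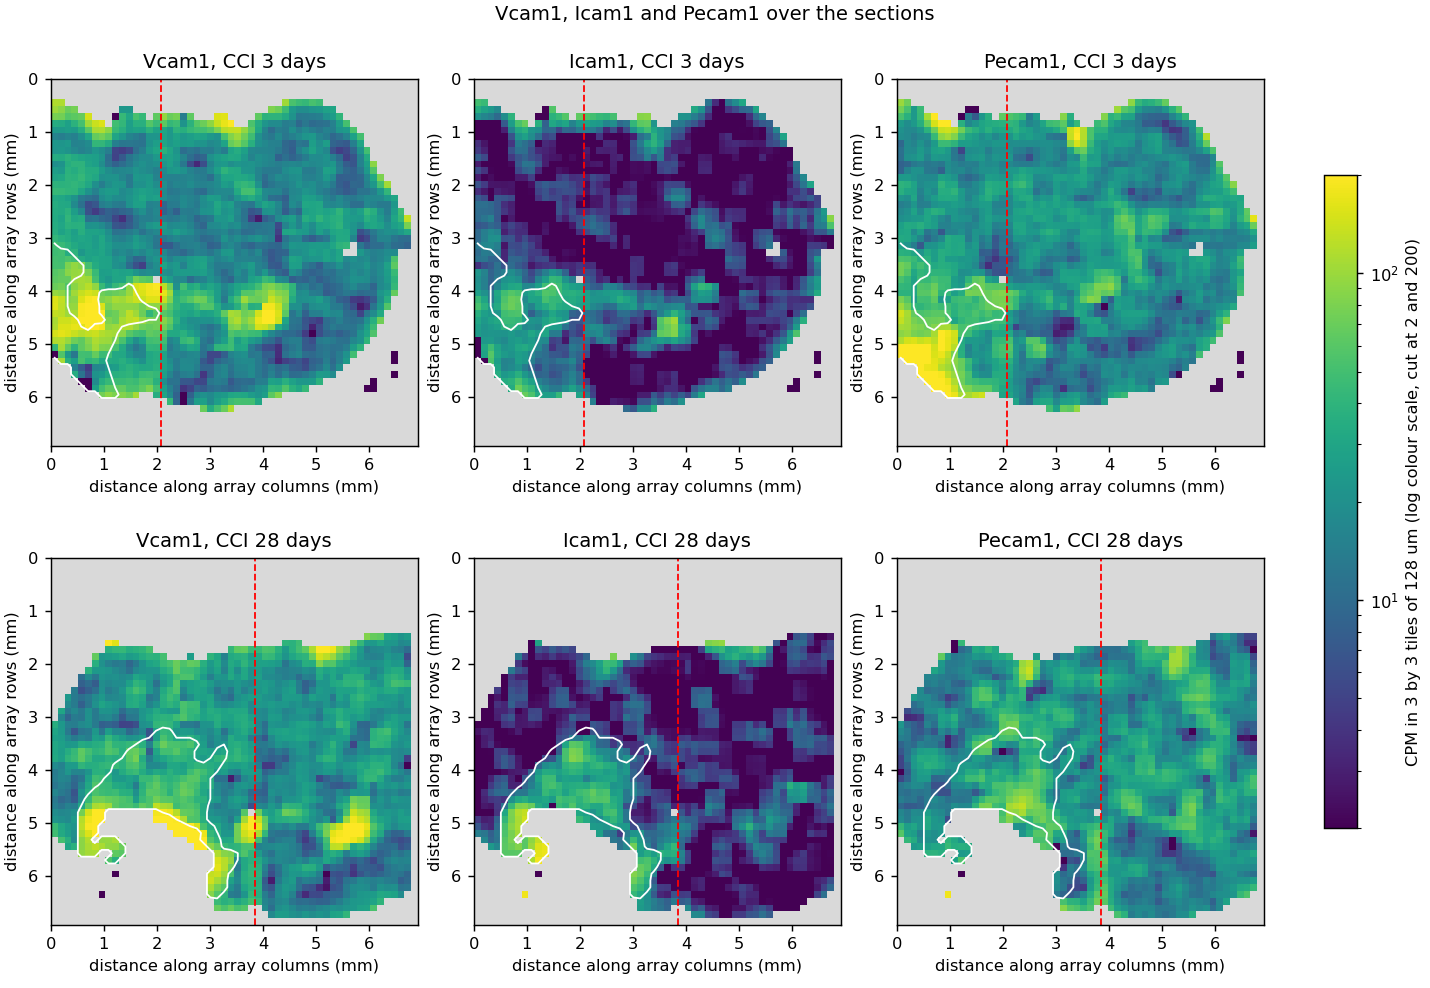
Maps of Vcam1, Icam1 and Pecam1 in both sections, as CPM over 3 by 3 tiles of 8 by 8 bins on a logarithmic colour scale, with the side boundary as a dashed red line and the phagocyte-rich zone outlined in white. Icam1 is brightest inside the outline at 28 days (46.4 CPM over the zone), and Pecam1 inside it at 3 days (106 CPM over the zone), while Vcam1 is also bright in patches beyond the outline.

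Whether a gene's UMIs lay with vessel genes was asked in single bins. Each bin was thinned to 300 UMIs, which left out 11% of the injured-side bins at 3 days and 19.9% at 28 days. The loss fell more heavily on the zone. There 1664 bins were left out and 6858 kept at 3 days, and 4404 and 9155 at 28 days. On the injured side outside it 2633 were left out and 27961 kept, then 5449 and 30470. The level of each marker list was compared between bins with and without a UMI of the member. Members that mark vessels served as the check of the label. In bins with Pecam1 the endothelial list was 3.89-fold higher at 3 days (3.45 to 4.37) and 4.85-fold at 28 days (4.22 to 5.52). Cdh5 had 4.41 and 5.14, Esam 3.61 and 4.38, and Icam2 4.68 and 4.57. The 18 bins with Selp at 3 days had 5.89-fold more endothelial UMIs (3.39 to 9.06) and 9.94-fold more of the venous list (3.73 to 19.2), which holds Nr2f2 and Vwf. The neuron list was lower in bins of each of these genes, from 0.486 for Selp at 3 days to 0.744 for Esam at 3 days, with an interval for Selp of 0.210 to 0.873.

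Plvap did not share this pattern. Bins with Plvap had 0.843-fold the endothelial UMIs of the others at 3 days (0.529 to 1.23) and 0.739-fold at 28 days (0.379 to 1.22) on the injured side, and 0.909 (0.620 to 1.25) and 1.13 (0.702 to 1.66) on the opposite side. The mural list, of pericyte and smooth muscle genes such as Pdgfrb and Acta2, was at 0.841 and 0.917. Choroid plexus genes were higher in its bins on the injured side, 1.95-fold (1.24 to 2.83) and 2.04-fold (1.05 to 3.37). Plvap UMIs in these bins thus did not come with more UMIs of this endothelial list. The list holds genes of barrier endothelium such as Cldn5, and genes of fenestrated endothelium were not used for co-location. Whether the Plvap UMIs came from endothelial cells was therefore not tested.

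Vcam1 lay with vessel genes to a smaller degree. Bins with Vcam1 on the injured side, 498 at 3 days and 525 at 28 days, had 2.06-fold (1.75 to 2.38) and 1.97-fold (1.65 to 2.32) more endothelial UMIs, and 3.06-fold (2.70 to 3.44) and 3.73-fold (3.29 to 4.20) more of the mural list. The interval of the endothelial value lay below that of Pecam1 at both times. The arterial list, with Bmx, Gkn3 and Mgp, was 2.25-fold (1.79 to 2.77) higher at 3 days and 4.60-fold (3.84 to 5.42) at 28 days. Bins with Vcam1 also had 4.69-fold (3.99 to 5.46) and 4.56-fold (3.74 to 5.47) more choroid plexus UMIs. Inside the zone these values were smaller: at 3 days the arterial list was at 0.869 (0.351 to 1.63), the mural list at 1.54 (1.16 to 1.97) and the choroid plexus list at 1.13 (0.271 to 2.62), and at 28 days at 1.84 (0.962 to 3.02), 2.14 (1.60 to 2.76) and 0.953 (0.092 to 2.82).

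Astrocyte genes were higher in Vcam1 bins too. The list of 8 genes, among them Gfap, Aqp4 and Aldh1l1, was 1.5-fold (1.40 to 1.59) higher at 3 days and 1.49-fold (1.40 to 1.58) at 28 days. On the opposite side it was 1.69-fold (1.58 to 1.80) and 1.5-fold (1.37 to 1.64), so the co-location was not limited to the injured side. The injured-side values rest on a single random thinning. Other settings, listed in the closing section, gave values above 1 but outside these intervals. For Pecam1 the same list was at 1.04 (0.961 to 1.13) and 1.25 (1.16 to 1.36). Inside the zone Vcam1 bins had 1.42-fold (1.28 to 1.57) and 1.25-fold (1.16 to 1.35) more astrocyte UMIs, against 0.768 (0.682 to 0.860) and 1.02 (0.916 to 1.14) for Pecam1 bins. The microglia list was at 0.680 (0.520 to 0.862) in Vcam1 bins of the 3 days zone and 1.03 (0.903 to 1.16) at 28 days.

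Sorting the thinned bins by content gave the same picture. Shares are of the Vcam1 UMIs left in the thinned bins of the injured side. A share grows with the number of bins in a class, so the CPM beside it gives the level. At 3 days bins with at least 2 astrocyte UMIs and no endothelial UMI held 37.4% of them, at 65.9 CPM (56.9 to 75.9). Bins with neither held 40.9%, at 33.9 CPM (29.4 to 38.8). Bins with endothelial UMIs had 101 CPM (75.9 to 133) where astrocyte UMIs were also present and 68.0 CPM (51.6 to 87.9) where they were not. At 28 days the astrocyte bins without endothelial UMIs held 42.8% at 65.1 CPM (57.0 to 74.0), and the bins with neither 38.4% at 29.9 CPM (25.9 to 34.2). At 3 days the intervals of Vcam1 in astrocyte bins and in endothelial bins without astrocyte UMIs overlapped. Pecam1 at 3 days had 168 CPM (141 to 198) in endothelial bins with fewer than 2 astrocyte UMIs, and 39.7 CPM (32.8 to 47.6) in astrocyte bins without an endothelial UMI. Thinning leaves few UMIs of each list in a bin, so a bin without an endothelial UMI can still hold part of a vessel.

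Over the whole injured side the endothelial fold of Icam1 bins was higher at 3 days and the astrocyte and microglia folds at 28 days, differences that were not tested and that did not all hold within the zone or outside it. Its 137 bins at 3 days had 2.92-fold (2.25 to 3.68) more endothelial, 1.21-fold (1.05 to 1.38) more astrocyte and 2.17-fold (1.73 to 2.66) more microglia UMIs. Its 148 bins at 28 days had 1.69-fold (1.16 to 2.32), 1.89-fold (1.71 to 2.08) and 2.70-fold (2.31 to 3.12). Fibroblast UMIs, of genes such as Dcn and Col1a1, were 3.61-fold (2.61 to 4.78) and 5.47-fold (3.87 to 7.36) higher. Within the 28 days zone the endothelial value was 1.37 (0.893 to 1.96), the astrocyte value 1.33 (1.21 to 1.45), the microglia value 1.15 (0.991 to 1.33) and the fibroblast value 2.72 (1.70 to 4.0). In the 3 days zone the endothelial value was 2.94 (1.91 to 4.20), the astrocyte value 1.04 (0.837 to 1.27) and the microglia value 1.16 (0.789 to 1.60), so that microglia values in the zone were alike in size at both times. Outside the zone the microglia value was 2.81 (2.07 to 3.66) at 3 days against 2.19 (1.29 to 3.34), and the astrocyte value 1.47 (1.24 to 1.73) against 1.06 (0.796 to 1.36), both lower in the 28 days section.

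The shares of Icam1 UMIs that follow are of those left in the thinned bins of the injured side, and they too grow with the size of a class. At 28 days 54.7% of them lay in bins with at least 2 astrocyte UMIs and no endothelial UMI, at 22.6 CPM (18.0 to 28.1). Bins with neither had 6.14 CPM (4.44 to 8.27). Bins with an endothelial UMI had 17.1 CPM (8.22 to 31.5) with and 19.3 CPM (10.6 to 32.5) without astrocyte UMIs. Bins with microglia UMIs and no endothelial UMI held 49.3% at 29.6 CPM (23.2 to 37.2). Astrocyte, microglia and fibroblast levels were themselves higher in the 28 days zone (9992, 4223 and 395 CPM, against 2572, 357 and 77.8 CPM on the opposite side), and their part in the Icam1 level was not tested.

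**Figure D4:**
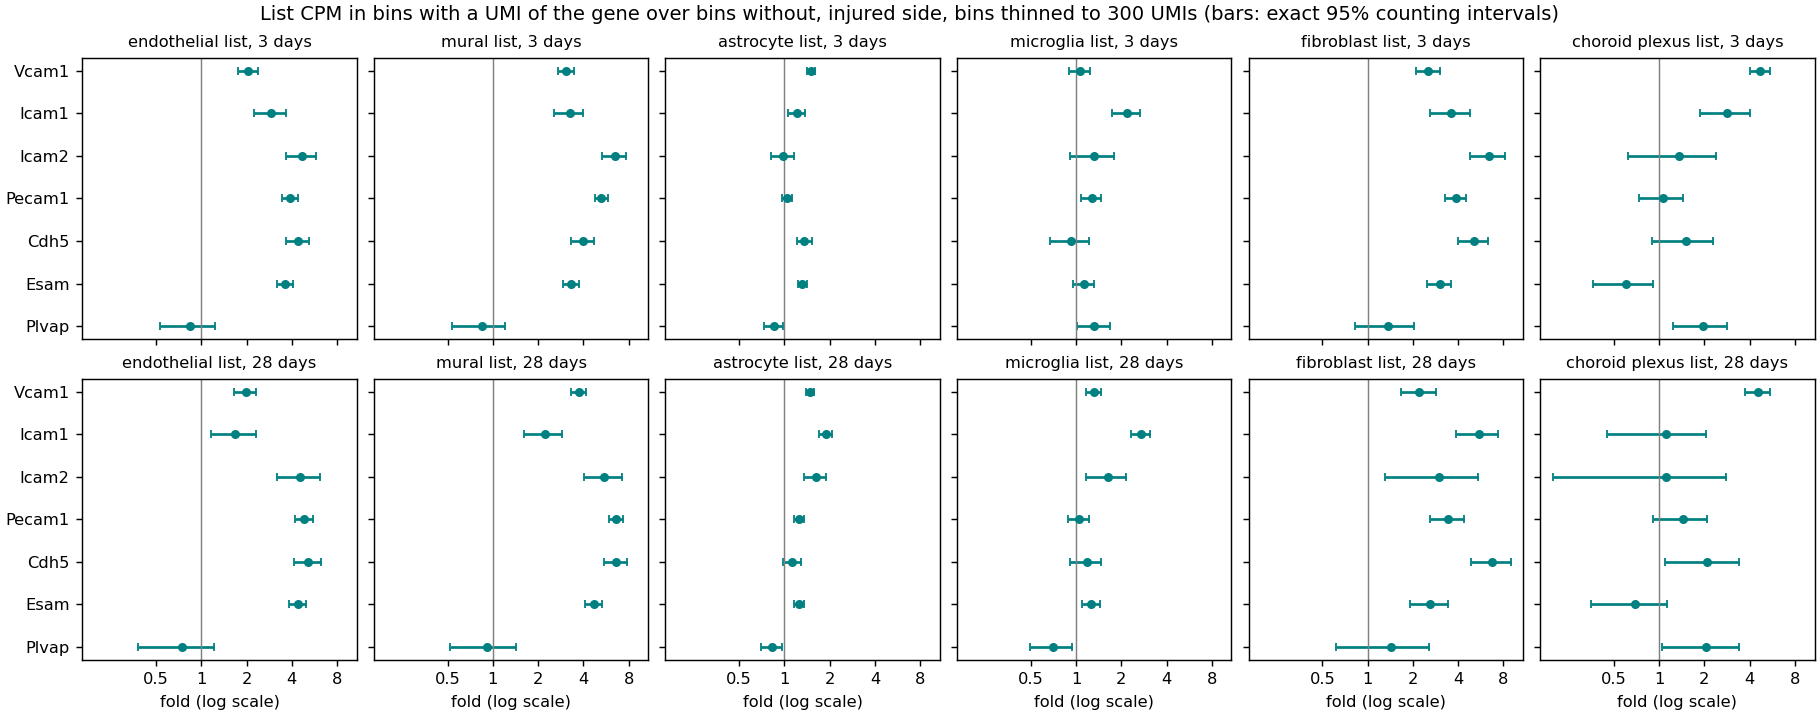
Fold of the summed level of 6 marker lists in bins with a UMI of each of 7 members over bins without it, on the injured side at 3 days and 28 days, with exact 95% counting intervals, in bins thinned to 300 UMIs. The endothelial fold lies between 3.61 and 5.14 for Pecam1, Cdh5, Esam and Icam2, at 2.06 and 1.97 for Vcam1, and at 0.843 and 0.739 for Plvap.

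Some members shared bins with one another, on few UMIs. On the injured side at 3 days the level of Cdh5 was 10.5-fold higher in bins with Pecam1 than in others, on 21 Cdh5 UMIs, and that of Esam 4.76-fold, on 27 UMIs. Bins with Icam1 had 5.59-fold more Pecam1, on 10 UMIs, and bins with Icam2 5.76-fold more Esam, on 7. Bins with Esam held 4 Selp UMIs, a log2 ratio of 4.48 (2.31 to 6.0) over other bins. Vcam1 in bins with Pecam1 was 1.60-fold at 3 days, with a log2 interval of -0.46 to 1.5, and 3.56-fold at 28 days, with a log2 interval of 0.97 to 2.50, on 10 and 16 UMIs. On the opposite side the same pair was at 4.27-fold (log2 interval 1.26 to 2.75) and 2.06-fold (-0.53 to 2.06), on 17 and 6 UMIs. The lower value at 3 days was thus seen on the injured side only. Bins with Vcam1 at 28 days held 15 Esam UMIs, 3.07-fold, with a log2 interval of 0.72 to 2.31. Not every pair was higher together. At 28 days bins with Icam1 held 1 Pecam1 UMI, 22.5 CPM against 31.1 CPM in other bins, and bins with Vcam1 held 1 Icam1 UMI, 6.35 against 12.5 CPM, each too few to set the levels apart. At 3 days the 166 bins with Plvap held 0 of the 468 Esam UMIs, with a log2 interval that reaches up to 0.72. So few bins cannot set those levels apart either.

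Across tiles of 16 by 16 bins on the injured side, 154 at 3 days and 194 at 28 days, the Pearson correlation of log2 CPM described the coarser pattern. Neighbouring tiles share tissue regions and depth, so the values are a description. Vcam1 had r of 0.69 with Icam1 at 3 days and 0.47 at 28 days. With the vessel genes Pecam1, Cdh5, Esam, Pdgfrb and Cldn5 it had 0.53, 0.48, 0.46, 0.46 and 0.21 at 3 days, and 0.35, 0.30, 0.39, 0.35 and 0.31 at 28 days. With the astrocyte genes Gfap and Aqp4 it had 0.62 and 0.36, then 0.43 and 0.37, so that the values for vessel and astrocyte genes overlapped. Icam1 had 0.64 with Pecam1, 0.59 with Cdh5 and 0.32 with Cldn5 at 3 days, and 0.22, 0.17 and 0.43 at 28 days. With Gfap, Aqp4 and Csf1r, a microglial receptor gene, it had 0.52, 0.32 and 0.48 at 3 days, and 0.69, 0.67 and 0.68 at 28 days. Pecam1 had 0.46 and 0.48 with Cldn5, the main claudin of brain endothelium, and Plvap -0.08 and -0.16.

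Among genes with at least 500 UMIs on the injured side, those with a pattern among the most like Vcam1 over these tiles included Ezr (r = 0.80), Lamp2, Lrp10 and H2bc4 at 3 days, and Ifitm2 (0.64), Cp, Pltp, Vamp8 and Pdpn at 28 days. For Icam1 they were Ifitm2 (0.77), Cd63, Tspo, Tnfrsf1a and Myof at 3 days, and C3 (0.79), Lgals3, Vim, Gpnmb and Msn at 28 days. Pecam1 was most like Itgb1 (0.78), Tgm2, Iqgap1, Eng and Col4a1 at 3 days, and Ptprb (0.60), Cald1, Myl9, Epas1 and Cavin1 at 28 days. Lgals3 is 1 of the 6 genes that drew the zone. Plvap reached 0.44 at most, with Slc5a3, at 3 days and 0.40, with Lor, at 28 days.

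The leukocyte side of these contacts was read from 11 counter-receptor genes. Of them 7 were 2-fold higher on the injured side at 3 days, where 10.5% of all genes were, and 6 at 28 days, where 6.43% were, and none was 2-fold lower, with median log2 ratios of 1.36 and 1.57. Itgal and Itgb2, the chains of the main ICAM-1 receptor of lymphocytes, had 1.06 (0.63 to 1.5) and 1.48 (1.34 to 1.62) at 3 days and 2.84 (2.32 to 3.42) and 2.45 (2.29 to 2.63) at 28 days. Itgax, a chain of a myeloid ICAM receptor, had 25 and 14 UMIs on the injured and opposite side at 3 days and 513 and 27 at 28 days, log2 ratios of 1.96 (0.98 to 3.04) and 4.51 (3.97 to 5.15). Itga4, a chain of the VCAM-1 receptor, was lower at 3 days, -0.35 (-0.53 to -0.16), and higher at 28 days, 0.71 (0.51 to 0.92). Selplg, the ligand of P-selectin, had 0.66 (0.49 to 0.84) and 0.40 (0.19 to 0.61). Microglia express several of these genes too, and their list had log2 ratios of 0.96 and 1.72.

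Inducers and parts of the NF-kB route numbered 13 genes, of which 6 were 2-fold higher on the injured side at 3 days and 9 at 28 days, beside 10.5% and 6.43% of all genes, and none 2-fold lower. The cytokine genes Tnf and Il1b had log2 ratios of 2.70 (2.10 to 3.36) and 2.93 (2.42 to 3.48) at 3 days and 1.98 (0.86 to 3.39) and 2.47 (1.69 to 3.42) at 28 days. The chemokine gene Ccl2 had 3.52 (3.20 to 3.87) and 2.64 (1.91 to 3.51). Tnfrsf1a, a receptor for Tnf, had 1.43 (1.37 to 1.5) and 1.38 (1.29 to 1.48), and Tnfaip3, a feedback inhibitor, 0.23 (-0.10 to 0.56) and 1.19 (0.85 to 1.54).

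Further endothelial adhesion and junction genes behaved less uniformly. Of 13 with enough UMIs, F11r and Glycam1 were 2-fold higher at 3 days (1.12 and 1.43) and Glycam1 at 28 days (3.73, 3.04 to 4.61), beside 10.5% and 6.43% of all genes, and none was 2-fold lower. The median log2 ratio was 0.71 at 3 days and 0.14 at 28 days, and that of the summed list 0.08 and 0.01. Among 5 genes of fenestrated or sprouting endothelium, Esm1 (1.19, 0.39 to 2.00) and Igfbp3 (1.31, 1.21 to 1.41) were 2-fold higher at 3 days and none at 28 days, against the same shares of all genes.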

How the data were processed

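Sections of 1 mouse at each time were assayed with Visium HD for fixed tissue. The UMI counts per gene and 16 µm bin were deposited by the authors as raw counts with no normalization, made with Space Ranger 4.0.1 per the file headers, on build mm10 per the submitters' processing notes. The image and tissue positions beyond the bin names were not used here.

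Bins under 100 UMIs were left out (1.93% at 3 days and 2.15% at 28 days). UMIs were summed per area and expressed as CPM (UMIs of a gene per 1000000 UMIs), and log2 ratios used a pseudocount of 0.5 UMI. Ratios carry exact conditional binomial and levels exact Poisson intervals (95%), which cover counting error only. A gene entered the counts of members with at least 20 UMIs over both sides. The phagocyte-rich zone used smoothing over 5 by 5 tiles, and co-location used bins thinned to 300 UMIs. Tile correlations used log2(CPM + 10). Genes named beside the members were genes of the lists and, by rule, the 5 most correlated ones in each section for Vcam1, Icam1, Pecam1 and Plvap, of which the first alone is given for Plvap. One of the most correlated genes and 1 list gene are not reported here by name. Total counts per section were 120615873 UMIs at 3 days and 82422389 at 28 days. The procedures were tested on simulated data. Tools were Python 3.11.15, numpy 2.4.6, scipy 1.17.1, pandas 2.3.3 and edgeR 4.0.16, the last for TMM factors only.

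The 9 members, the marker and pathway lists and the zone were chosen with earlier results of these data known. Ly6c1 and Ly6c2, listed as markers, were not used here since no gene of that symbol was matched. Alternatives were other side boundaries, no bin minimum, opposite columns of equal width, TMM scaling, UMIs per bin, another zone threshold, Cldn5 alone as the endothelial reference, and other thinnings. Promoter windows came from the RefSeq table of GRCm38.p6.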

Additional observations from a re-analysis of the deposited data

Results flagged for a closer look

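Icam2 had a log2 ratio of injured over opposite side of 1.09 at 3 days and -0.16 at 28 days, a difference of -1.24. Selp had 2.65 and -1.06, a difference of -3.71, on 22 UMIs at 28 days, and Esam had 0.58 and -0.06, a difference of -0.64. Each of the 3 stood out because its sides differed in opposite directions at the 2 times. The 28 days interval of each spans 0, so that its direction there is not set. The difference between the times was not tested, since each time is 1 section.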

How the results depend on the processing

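One section stands behind each time, so the limits of these values are the unknown spread between animals, the depth of the sparse genes (Selp and Sele) and the mix of tissue on each side. No paired analysis was possible because each group has 1 section. At 3 days 5 members were 2-fold higher, where 10.5% of all genes were. This count became 2 (6.73% of all genes) against opposite columns of the same width and 3 (7.73%) under TMM scaling. It was 2 (8.28%) without bins holding a choroid plexus or fibroblast UMI, where Sele had too few UMIs to be counted. The Vcam1 log2 ratio at 3 days was 0.95, 0.96 and 0.92 under the same alternatives and 1.01 as UMIs per bin, and at 28 days it was 0.69 as UMIs per bin and 0.73 with the boundary 10 columns towards the injured side. Per endothelial UMI it was 0.55 against columns of the same width, 0.49 with Cldn5 alone and 0.56 without the choroid plexus and fibroblast bins at 3 days, and 0.66 with Cldn5 alone at 28 days. The astrocyte fold of Vcam1 bins was 1.22 without thinning, 1.26 at 200 UMIs and 1.37 in squares of 2 by 2 bins at 3 days, and 1.62 without thinning at 28 days. The endothelial fold was 1.69 without thinning and 1.62 in squares at 3 days, and 1.65 without thinning and 2.67 at 200 UMIs at 28 days. Vcam1 up to 250 µm outside the zone was at 69.1 and 37.8 CPM with the zone drawn at the 95th percentile and at 44.8 and 20.8 CPM without the choroid plexus and fibroblast bins, and in the 28 days zone at 71.8 CPM without them. Esam per endothelial UMI at 3 days turned to -0.0427 with Cldn5 alone, and Cdh5 at 28 days turned to -0.0423, and to -0.0276 per endothelial UMI, without those bins. The cause of these moves was not tested. The removal of those bins, and the mean of 20 other thinnings, were chosen after seeing the data. Of the values tied to a comparison 40 moved by less than their counting interval and 26 by more, and of the single-gene values 182 moved by less, 26 by more and 3 turned direction.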
